A study of Mus musculus with 22 samples.

Results

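The integrated stress response and the unfolded protein response were followed through 10 transcripts, Atf4, Ddit3, Trib3, Chac1, Asns, Psat1, Phgdh, Xbp1, Atf6 and Sesn2, chosen by gene symbol from the 29367 genes of the count table. All 10 were found and all 10 passed the filter on low counts in each of the 5 comparisons made. The libraries came from mouse optic nerve after microbead injection into the eye, which raises intraocular pressure, and the RNA was bound to ribosomes of cells that expressed a GFAP-Cre transgene. The 22 libraries formed 4 groups: the optic nerve head (ONH, the unmyelinated start of the nerve) at 7 days (n = 4) and 30 days (n = 7) after injection, and the optic nerve proper (ONP, the adjoining myelinated segment) at 7 days (n = 4) and 30 days (n = 7).

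All groups shared the same cross, labelled as wild type, of B6J.129(Cg)-Rpl22tm1.1Psam/SjJ mice with the GFAP-Cre transgenic line 73.12Mvs/J on a B6.Cg background, and all mice were adult and received microbeads. Cre recombination puts an HA tag on the ribosomal protein Rpl22, and anti-HA beads then pull down ribosomes with their mRNA. The Cre was constitutive, so any cell whose lineage once used the GFAP promoter could carry the tag. In stained sections after microbead injection, the paper reports the tag with an astrocyte marker and not with markers of microglia, oligodendrocytes or NG2 glia. It also reports by RT-qPCR that the pulled-down RNA was enriched for astrocyte markers only. Each library combined tissue from 4 mice of both sexes in equal number. Uninjured nerve and the unbound fraction were not analysed here. The comparisons therefore address how these transcripts differed between regions and between days after injection, not how they differed from uninjured nerve.

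The integrated stress response begins when a kinase (Eif2ak1, Eif2ak2, Eif2ak3 or Eif2ak4) phosphorylates the initiation factor eIF2alpha. General translation then slows while Atf4 mRNA is translated more, and the ATF4 protein switches on genes for amino acid synthesis and import, tRNA charging and stress regulation. The unfolded protein response is started by misfolded protein in the endoplasmic reticulum (ER) through 3 sensors, Eif2ak3 (PERK), Ern1 (IRE1, which splices Xbp1 mRNA) and Atf6 (cleaved in the Golgi), and it raises ER chaperones and the disposal of ER protein. ATF4 is controlled at translation, XBP1 by splicing and ATF6 by cleavage, so gene-level transcript values do not measure the activity of those proteins.

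Total counts ran from 16292489 to 33307092 per library, and 3 counts corresponded to between 0.0897 and 0.191 CPM (the count divided by the library total after scaling with TMM factors, times a constant). The defining astrocyte transcript Gfap averaged 13043 ± 4834 CPM in ONH at 7 days (SD, n = 4), 12894 ± 2876 in ONH at 30 days (n = 7), 12759 ± 2511 in ONP at 7 days (n = 4) and 18167 ± 4208 in ONP at 30 days (n = 7). Aqp4, another astrocyte marker, was lower in ONH, at 297 ± 91 CPM at 7 days and 447 ± 116 at 30 days. In ONP it averaged 948 ± 96 and 1204 ± 455. The summed level of 10 astrocyte markers ran from 14554 to 27613 CPM in ONH libraries and from 15046 to 33595 in ONP libraries. Markers of other cells were present as well. The summed level of 10 oligodendrocyte markers ran from 13870 to 41828 CPM in ONH libraries and from 26122 to 108261 in ONP libraries, and the sum of 6 photoreceptor markers ran from 103 to 5684 CPM in ONH and from 2.4 to 128 in ONP. In such pooled samples, fewer cells of a type and less RNA per cell cannot be told apart.

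Per kilobase of exon, Phgdh was the most abundant of the 10 in every group, and Trib3 and Chac1 were the least abundant. In ONP at 30 days the mean levels were 259 CPM per kilobase for Phgdh and 151 for Psat1, which placed them at the 99.2 and 98.5 percentiles of the 16734 genes measured. Xbp1 followed at 66.5 CPM per kilobase, Ddit3 at 43.9 and Atf4 at 10.9, and Trib3 and Chac1 stood at 0.761 and 1.52. In ONH at 30 days Phgdh stood at 147 CPM per kilobase, Ddit3 at 93.1, Psat1 at 78.6 and Xbp1 at 72.9, and the gaps between the last 3 were smaller than the SD of Ddit3, 22.4. Sesn2 (6.22 to 9.18 CPM per kilobase over the 4 groups), Asns (3.4 to 5.66) and Atf6 (2.45 to 3.85) lay between. Dividing by the longest transcript in place of all exons gave 193, 165, 128 and 111 for these 4 genes, in the same order.

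**Figure D1:**
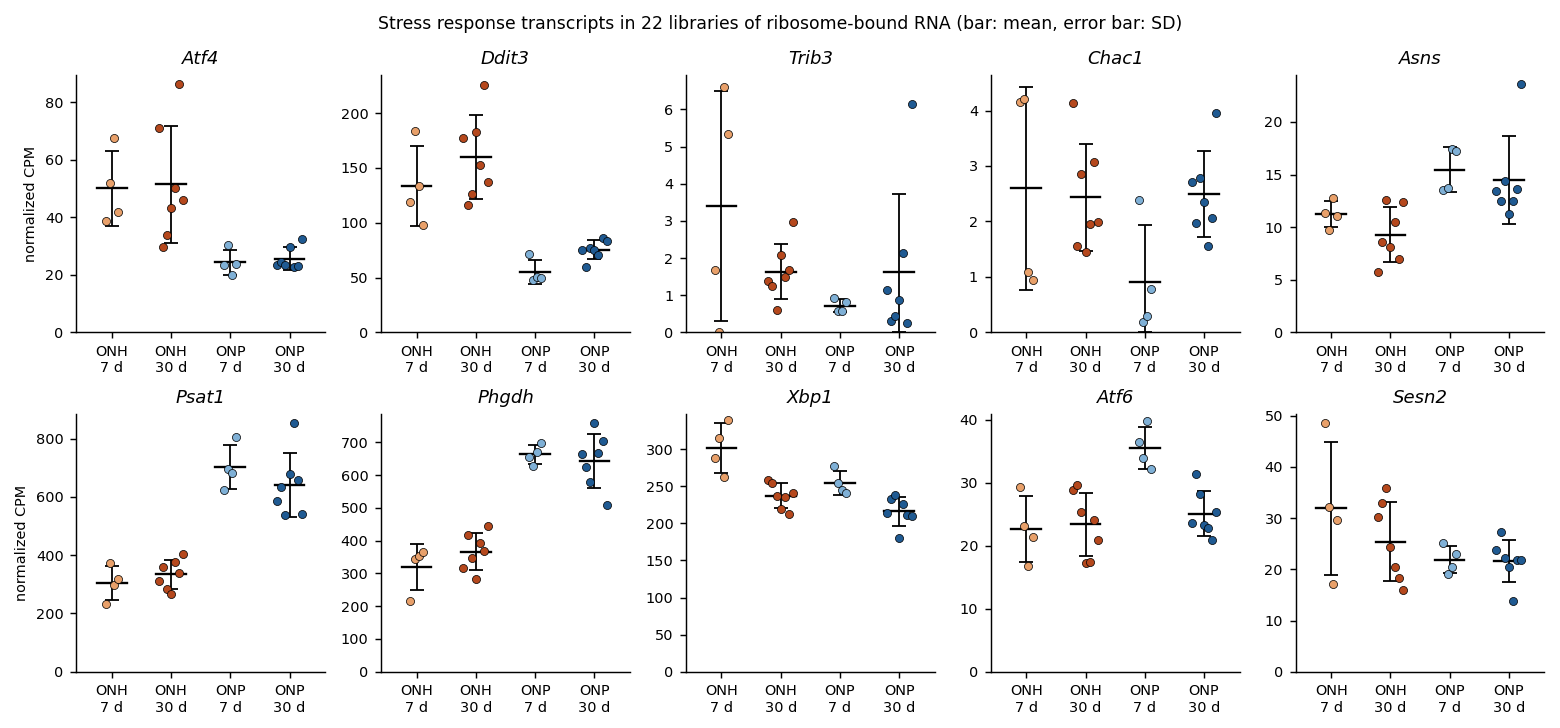
Normalized CPM (vertical axes, starting at 0, 1 scale per gene) of the 10 transcripts in each of the 22 libraries, grouped by region and day; points are libraries, horizontal bars are means and error bars are SD, cut at 0 where the SD exceeded the mean. Every ONH point of Ddit3 lies above every ONP point of the same day, and every ONH point of Psat1 and Phgdh lies below.

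ONH and ONP were compared at each day to ask whether the regions differed in these transcripts. At 30 days the transcription factors Atf4 and Ddit3 were higher in ONH, and the amino acid synthesis genes Asns, Psat1 and Phgdh were lower. These were 2 of 10 higher and 3 of 10 lower, against 21.8% and 20% of the 15133 genes tested (41.8% in either direction), by edgeR's quasi-likelihood test at a Benjamini-Hochberg adjusted p under 0.05. At 7 days Atf4 and Ddit3 were higher and Psat1 and Phgdh lower, 4 of 10, where 6.34% of 14752 genes were higher and 6.81% lower (13.2% in all). The median log2 fold change (ONH over ONP) of the 10 was -0.01 at 30 days and 0.41 at 7 days, and over all genes it was -0.01 and 0.07.

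Atf4 (chr15:80255184-80257541, plus strand, mm10), the transcription factor at the centre of the response, measured 38.6, 52.0, 67.6 and 41.9 CPM in the 4 ONH libraries at 7 days and 23.5, 30.3, 19.9 and 23.8 CPM in the 4 ONP libraries. At 30 days its lowest, median and highest levels were 29.9, 46.1 and 86.4 CPM in ONH and 22.7, 23.5 and 32.6 in ONP. The groups did not overlap at 7 days and did so slightly at 30 days. The log2 fold change of ONH over ONP was 1.06 ± 0.23 at 7 days (SE, edgeR adjusted p = 0.0128) and 0.99 ± 0.20 at 30 days (adjusted p = 0.000935), close to a doubling. At 7 days the call rested on 1 library, since without the ONP library numbered 5 the adjusted p was 0.0515 (log2 fold change 0.97).

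Ddit3 (chr10:127290774-127296288, plus strand) encodes CHOP, a transcription factor induced by ATF4 in prolonged stress. It measured 119, 184, 134 and 97.8 CPM in ONH at 7 days and 71.3, 48.0, 50.7 and 49.9 in ONP. At 30 days the lowest, median and highest were 116, 153 and 226 CPM in ONH and 59.4, 75.4 and 86.1 in ONP. No ONH library reached down to an ONP library of the same day. The log2 fold change was 1.3 ± 0.22 at 7 days (edgeR adjusted p = 0.00381) and 1.08 ± 0.13 at 30 days (adjusted p = 1.88e-05). The libraries did not mark strand, and 68 bases (3.97%) of the exons of Ddit3 are shared with Mars on the other strand, whose own difference was 0.11 ± 0.13 at 30 days and -0.42 ± 0.17 at 7 days. Another annotated entry named Ddit3 on the same strand shares 105 bases (6.13%) and was not among the genes counted.

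Psat1 (chr19:15904678-15947337, minus strand) and Phgdh (chr3:98313170-98339990, minus strand) encode consecutive enzymes of serine synthesis, which astrocytes supply to neurons. Psat1 measured 233, 373, 298 and 318 CPM in ONH at 7 days and 625, 694, 683 and 804 in ONP, and at 30 days ONH ran from 266 to 404 CPM (median 340) and ONP from 536 to 854 (median 635). Phgdh measured 216, 344, 352 and 365 CPM in ONH at 7 days and 656, 629, 670 and 698 in ONP, and at 30 days ONH ran from 282 to 444 CPM (median 367) and ONP from 510 to 760 (median 663). For both genes the regions did not overlap at either day. Psat1 was lower in ONH, with a log2 fold change of -1.18 ± 0.17 at 7 days (edgeR adjusted p = 0.00171) and -0.94 ± 0.12 at 30 days (adjusted p = 3.49e-05). Phgdh differed by -1.04 ± 0.18 (edgeR adjusted p = 0.00392) and -0.82 ± 0.12 (7.68e-05).

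Asns (chr6:7675169-7693254, minus strand), asparagine synthetase, measured 11.4, 9.72, 12.8 and 11 CPM in ONH at 7 days and 13.5, 13.7, 17.4 and 17.2 in ONP. At 30 days ONH ran from 5.75 to 12.6 CPM (median 8.63) and ONP from 11.3 to 23.6 (median 13.5). The log2 fold change was -0.64 ± 0.21 at 30 days (edgeR adjusted p = 0.0245) and -0.45 ± 0.24 at 7 days (adjusted p = 0.241). The 30 day call rested on 1 library: without ONP replicate 7, the highest, the adjusted p was 0.0606 (log2 fold change -0.49). All 5 of these members differed in the same direction in 7 of 7 pairs of ONH and ONP libraries with the same replicate number at 30 days. For Ddit3, Psat1 and Phgdh the groups did not overlap, so any matching of libraries would give this count. The 5 were also picked by the test on the same libraries, so the count is a description only. Groups did not overlap for 3 of 10 members at 30 days and 6 of 10 at 7 days, where 16.4% and 21.7% of all genes did not.

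**Figure D2:**
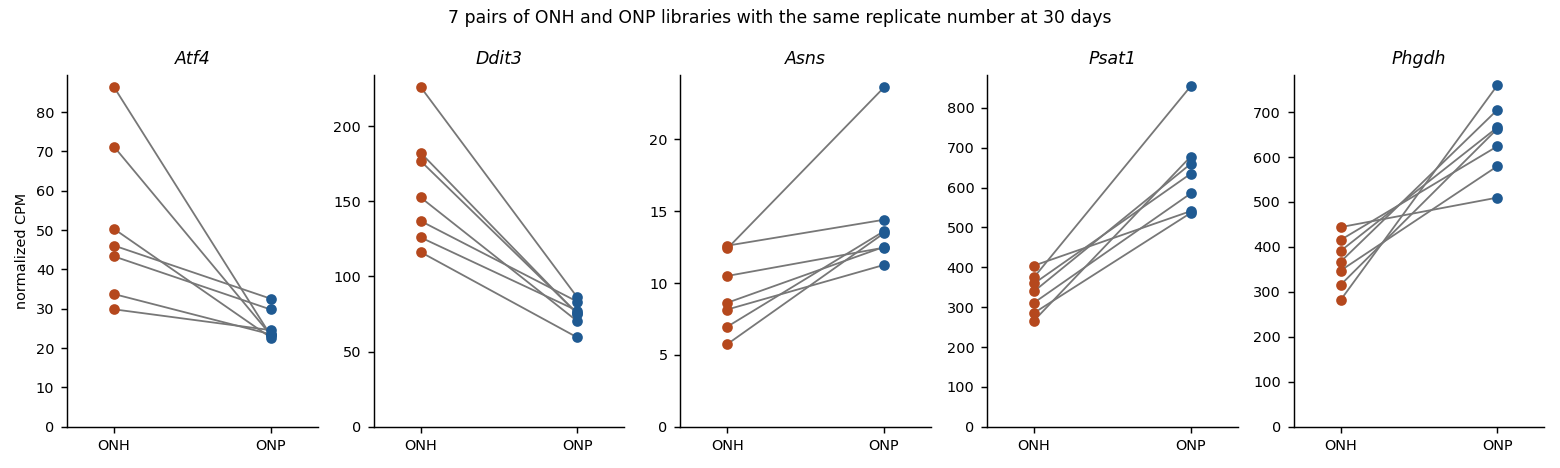
Normalized CPM (vertical axes, starting at 0) of the 5 members that differed between regions at 30 days, with a line joining the ONH and ONP library of each of the 7 replicate numbers. All 7 lines fall from ONH to ONP for Atf4 and Ddit3 and rise for Asns, Psat1 and Phgdh.

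The remaining 5 members did not pass the test between regions. Xbp1 (chr11:5520659-5525893, plus strand) had a log2 fold change of 0.13 (95% interval -0.06 to 0.31) at 30 days and 0.26 (-0.05 to 0.58) at 7 days. Atf6 (chr1:170704674-170867771, minus strand) measured 29.3, 23.1, 16.7 and 21.4 CPM in ONH at 7 days and 36.4, 33.9, 39.8 and 32.2 in ONP, groups that did not overlap, with a log2 fold change of -0.63 ± 0.21 (edgeR adjusted p = 0.0788; DESeq2 adjusted p = 0.0247; 0.0354 in edgeR without the ONH library numbered 1), and at 30 days -0.10 (-0.41 to 0.20). Sesn2 (chr4:132492032-132510501, minus strand), sestrin 2, a brake on mTORC1 signalling, had 0.23 (-0.18 to 0.65) at 30 days and 0.57 (-0.08 to 1.21) at 7 days.

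Trib3 (chr2:152337422-152344032, minus strand) and Chac1 (chr2:119351229-119354381, plus strand) are textbook ATF4 and CHOP targets, a pseudokinase that restrains the response and an enzyme that degrades glutathione. Both were rare and variable. Trib3 measured 1.67, 0, 6.61 and 5.33 CPM in ONH at 7 days, the 0 being 0 counts of 33307092, which allows up to 0.0897 CPM for counting error, and 0.919, 0.573, 0.574 and 0.824 in ONP. Chac1 measured 4.15, 4.22, 1.08 and 0.953 CPM in ONH at 7 days and 2.39, 0.191, 0.287 and 0.787 in ONP. Fold changes of ONH over ONP on the log2 scale were 2.23 (-0.30 to 4.77; -0.29 with limma-voom) for Trib3 and 1.55 (-0.42 to 3.52) for Chac1 at 7 days, and 0.02 (-1.30 to 1.33) and -0.04 (-0.65 to 0.58) at 30 days. Without the ONH library at 7 days in which it was at 0, Trib3 had 2.65 and passed (edgeR adjusted p = 0.0274). With all libraries neither passed the test, and their intervals at 7 days include differences as large as those of Atf4 and Ddit3.

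At 30 days the libraries with the most Trib3 were also those with the most macrophage RNA. In ONP at 30 days, replicate 7 had 6.15 CPM of Trib3 and a summed level of 4785 CPM over 10 microglia and macrophage markers, replicate 5 had 2.14 and 3730, and the other 5 libraries had at most 1.14 and 1280. In ONH at 30 days replicate 7 had the most of both, 2.97 and 4268 CPM. At 7 days this held only in part. ONP libraries with marker sums of 1579 to 2606 CPM had 0.573 to 0.919 of Trib3, and the highest ONH library for Trib3 (6.61) had a sum of 1158. The ONH library with 0 Trib3 had the lowest sum of its group, 200 CPM, and that with the highest sum, 2071, had 5.33. The part of these cells in the level of Trib3 was not tested.

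Chac1 and Asns were the only members whose RefSeq promoter (250 bases before the start, 9 of 10 members matched by symbol, GRCm38.p6) held the C/EBP-ATF response element, searched on both strands as TGATGNAA, the letters that ATF4 dimers bind. It occurred in 3.45% of 32851 promoters. Each sequence is shown 5′ to 3′ on the strand of its gene, with the match in capitals, because it is the element through which ATF4 acts on its targets.
Chac1, chr2:119351033-119351072, plus strand, match on the opposite strand: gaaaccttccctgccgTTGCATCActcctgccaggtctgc
Asns, chr6:7693210-7693248, minus strand: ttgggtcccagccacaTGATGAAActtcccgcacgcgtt
The match lay 185 bases before the start of Chac1 and 15 bases before that of Asns.

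The lists by pathway are read against the same shares, 21.8% of all genes higher and 20% lower at 30 days. Some lists hold members, whose calls repeat those given above. These are 3 synthesis genes (Asns, Psat1 and Phgdh) and 2 stress transcription factors (Atf4 and Ddit3). The ATF4 target regulators hold 3 (Trib3, Chac1 and Sesn2) and the sensors 2 (Atf6 and Xbp1). At 7 days these shares were 6.34% and 6.81%. Of 9 genes of serine, glycine, asparagine and proline synthesis, 7 were lower in ONH at 30 days and 1 higher (Psph, the last step of serine synthesis, log2 fold change 0.32 ± 0.11), with a median of -0.77. The call of Psph was lost without ONH replicate 1 or 6 or ONP replicate 5 or 7. Pycr1, which closes the proline ring, was lowest at -1.61 ± 0.39 (2.45 against 7.49 CPM), followed by Psat1 and by Aldh1l2 at -0.92 ± 0.31, a mitochondrial folate enzyme, and Aldh18a1 and Mthfd2 also passed the test. Of 9 amino acid transporters 3 were lower, the glycine transporter Slc6a9 (-2.47 ± 0.34, 20.1 against 112 CPM), Slc7a3 (-1.59 ± 0.33) and Slc1a5 (-1.31 ± 0.24), and none was higher. At 7 days 4 of the 9 synthesis genes (Pycr1, Aldh1l2, Psat1 and Phgdh) and 2 of the 9 transporters (Slc6a9 and Slc38a2) were lower.

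Of 8 ATF4 partners and stress transcription factors, 4 were higher in ONH at 30 days and none lower, with a median of 0.60. Beside Atf4 and Ddit3 these were Nupr1, a small stress-induced chromatin protein, at 2.12 ± 0.14 (499 against 114 CPM) and Atf5, an ATF4 relative that governs mitochondrial stress genes, at 1.54 ± 0.33 (17.6 against 5.94 CPM). At 7 days, when 6.34% of all genes were higher, 5 of 8 were, with Nupr1 at 1.88 ± 0.20, Atf5 at 2.23 ± 0.46 and Cebpb at 4.10 ± 1.18. The Cebpb value came from 2 of 4 ONH libraries, at 35.6 and 48.4 CPM. The others measured 3.13 and 0.505, and ONP ran from 0.382 to 2.3. At 30 days Cebpb stood the other way, with a mean of 1.97 CPM in ONH and 6.94 in ONP, and did not pass. With a library left out, up to 1 gene of this list was called lower at 30 days. Among 10 ATF4 target regulators tested at 30 days, 4 were higher, Stc2 (3.14 ± 0.50), Nupr1, Gdf15 (1.66 ± 0.36) and Ppp1r15a (0.52 ± 0.11), and Vldlr was lower. Stc2 and Gdf15 were rare, at 1.61 and 2.14 CPM in ONH.

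The eIF2alpha kinases differed from each other in direction. At 30 days Eif2ak3 was lower in ONH at -0.91 ± 0.15 (edgeR adjusted p = 0.000219), Eif2ak4, which senses uncharged tRNA, at -0.72 ± 0.25 (0.029) and Eif2ak1, the heme and mitochondrial stress kinase, at -0.57 ± 0.09 (0.000173), and Eif2ak2, the kinase for double-stranded RNA, was higher at 0.79 ± 0.17 (0.00174). Of the phosphatase subunits that reverse the mark, Ppp1r15a was higher and Ppp1r15b lower (-0.49 ± 0.11). Eif2s1, which encodes eIF2alpha, did not pass (-0.14 ± 0.13), nor did Ern1, Atf6b, Atf3, Ddit4 or Hspa5, with values from -0.34 to 0.17. At 7 days Ppp1r15a (1.36 ± 0.32) was the only 1 of the 7 in this list to pass.

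The ER lists at 30 days are read against the 21.8% of all genes that were higher in ONH and the 20% that were lower. At 7 days these shares were 6.34% and 6.81%. Of 17 genes of ER translocation and signal peptide processing 11 were higher in ONH and none lower (median 0.35), led by Sec61b (1.04 ± 0.18), Sec61g (0.82 ± 0.26) and Sec63 (0.66 ± 0.12). Of 18 ER chaperones and folding enzymes 6 were higher (median 0.09), led by Manf (0.92 ± 0.18), Creld2 (0.41 ± 0.12) and Dnajc3 (0.40 ± 0.15). Of 15 genes of ER-associated degradation 6 were lower, among them Sel1l (-0.76 ± 0.19) and Ube2j1 (-0.68 ± 0.19), and 2 higher, Selenos and Derl2. The cytosolic aminoacyl-tRNA synthetases charge tRNA with amino acids and are ATF4 targets in part. Of the 19 in the list, 6 were lower, led by Iars (-1.05 ± 0.18), Wars (-0.68 ± 0.14) and Aars (-0.48 ± 0.14). Sars (0.79 ± 0.10) and Lars were higher. Mars is also such a synthetase but was left out, since the list named it by another symbol. It did not pass between regions at either day. In the mitochondrial stress relay of 9 genes Hspe1 (0.77 ± 0.16), Clpp and Lonp1 were higher and Oma1 and Dele1, the protease and messenger that report mitochondrial stress, lower. At 7 days Sec61b (1.05 ± 0.24) was higher and Sel1l, Edem1 and Syvn1 were lower, as was Iars, and no ER chaperone or relay gene passed the test in edgeR (5 and 2 at an unadjusted p under 0.05; DESeq2 called 4 and 0). These 7 day calls rested on few libraries. None of the degradation genes passed without any 1 of the ONP libraries numbered 2, 5 and 6 (1 did without number 1), Iars was lost without the ONH library numbered 3 or 5 or any 1 ONP library, Sec61b without the ONP library numbered 1, 5 or 6, and Ppp1r15a without the ONH library numbered 1 or 3 or the ONP library numbered 2 or 6. Without the ONP library numbered 5 the stress transcription factors that passed were 3 in place of 5. At 30 days the 2 lower relay genes fell to 0 without ONP replicate 1 or 3.

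Markers of other cells differed between the regions in the same comparisons. At 30 days 6 of 6 photoreceptor markers and 6 of 6 pigment cell markers were higher in ONH (medians 5.66 and 5.68 on the log2 scale), 8 of 10 oligodendrocyte markers (median -0.97) and 4 of 5 oligodendrocyte precursor markers were lower, and of 10 astrocyte markers 1 was higher and 3 were lower. At 7 days 10 of 10 oligodendrocyte markers were lower and 6 of 6 pigment cell and 5 of 6 photoreceptor markers higher. Of 10 astrocyte markers 2 were lower at 7 days and none was higher. None of the defining photoreceptor or pigment cell markers was at 0 in every library of a group. The part of other cells in the regional differences was not tested.

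**Figure D3:**
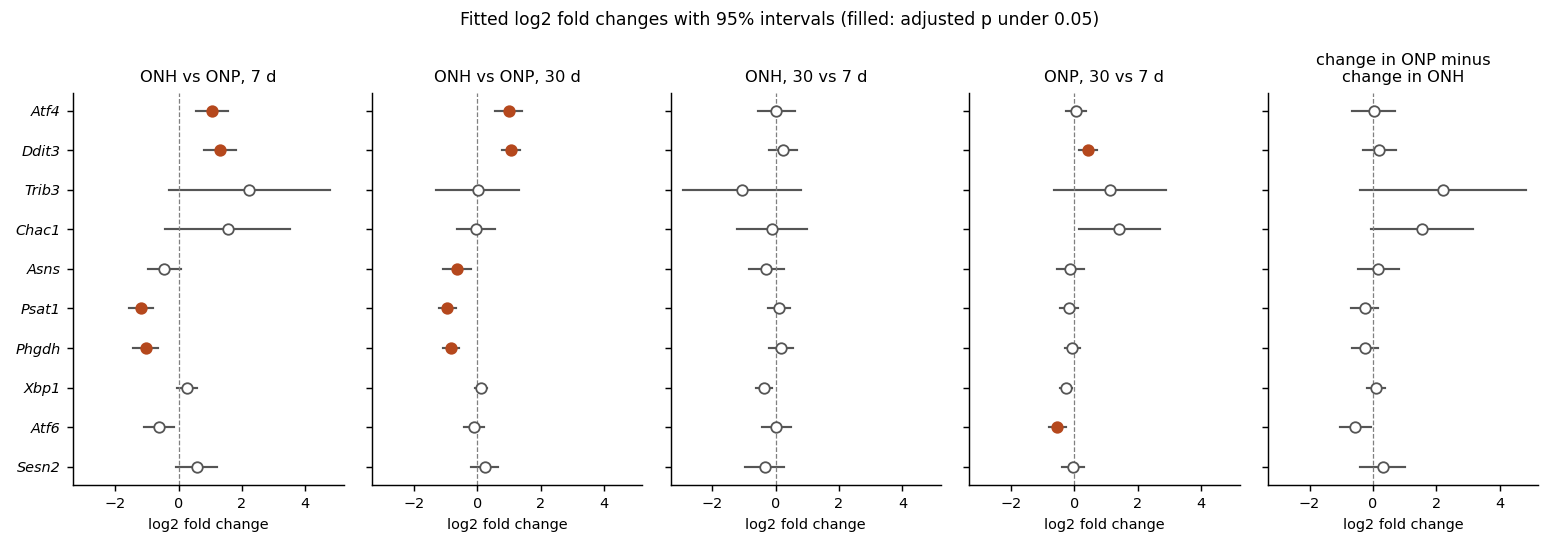
Log2 fold changes (horizontal axes) of the 10 members in the 5 comparisons, with 95% intervals as lines; filled points passed an adjusted p under 0.05 in edgeR. Filled points are concentrated in the 2 comparisons of region, 5 at 30 days and 4 at 7 days.

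Days 7 and 30 were then compared within each region. These comparisons use the same libraries as those between regions and are not independent of them. In ONP, Ddit3 was higher at 30 days (1 of 10, against 7.82% of 15491 genes) and Atf6 lower (1 of 10, against 9.21%), which together is 2 of 10 where 17% of all genes passed. With scaling by library size alone the calls over all genes in this comparison shifted from 1211 higher and 1427 lower to 1934 and 966, while the same 2 members passed. In ONH none of the 10 passed in edgeR, nor did any gene of 15668 (0%), although 2179 genes, 1 of them a member (Xbp1), had an unadjusted p under 0.05 and DESeq2 called 446, none of them a member.

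Atf6 in ONP fell from 36.4, 33.9, 39.8 and 32.2 CPM at 7 days to between 20.9 and 31.3 (median 23.6) at 30 days, without overlap, a log2 fold change of -0.53 ± 0.12 (edgeR adjusted p = 0.0114). In ONH its value was 0.02 ± 0.21. Ddit3 in ONP measured 71.3, 48.0, 50.7 and 49.9 CPM at 7 days and 59.4 to 86.1 (median 75.4) at 30 days, so the groups overlapped through 1 high library at 7 days, and its log2 fold change was 0.42 ± 0.13 (adjusted p = 0.0423). That call was lost when any of 8 of the 11 libraries was left out (adjusted p from 0.0636 to 0.114), with a log2 fold change of 0.37 to 0.60 over all 11,, and with all 4 groups in one fit neither Ddit3 (0.132) nor Atf6 (0.068) passed. Mars, which shares exon bases with Ddit3, moved the other way, at -0.67 ± 0.13 (adjusted p = 0.00482).

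Xbp1 was lower at 30 days in both regions without passing the test. It measured 288, 315, 262 and 340 CPM in ONH at 7 days and 212 to 258 (median 237) at 30 days, and 278, 254, 245 and 241 in ONP at 7 days and 180 to 238 (median 214) at 30 days. In neither region did the days overlap. The log2 fold change was -0.37 ± 0.12 in ONH (edgeR adjusted p = 0.235, unadjusted p = 0.00876) and -0.26 ± 0.09 in ONP (adjusted p = 0.0549, 0.0422 with limma-voom). Groups did not overlap for 1 of 10 members in ONH and 2 of 10 in ONP, where 2.28% and 12% of all genes did not.

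Chac1 in ONP measured 0.191 to 2.39 CPM at 7 days and 1.56 to 3.96 at 30 days, with a log2 fold change of 1.42 ± 0.59 (edgeR adjusted p = 0.113; DESeq2 adjusted p = 0.0397). Without the ONP library numbered 1 at 7 days, the highest of its group, the value was 2.51 and the adjusted p 0.0113. Trib3 had 1.13 (-0.65 to 2.91) in ONP and -1.07 (-2.93 to 0.79) in ONH, which limma-voom turned to 1.5. Atf4 stood at 0.05 (-0.26 to 0.35) in ONP and 0.01 (-0.57 to 0.59) in ONH, and intervals for Psat1 and Phgdh lay within -0.45 to 0.55 in both regions. Asns and Sesn2 had values of -0.35 to -0.05.

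Of the 11 lists, the ER chaperones had the most calls between days in ONP. There 8 of 18 were lower at 30 days, where 9.21% of all genes were, and 1, Ero1lb, an oxidase that helps to form disulfides, was higher, with a median of -0.34 against -0.01 for all genes. Hspa5, which encodes BiP, the chief ER chaperone and a common readout of this response, measured 1647, 1339, 1281 and 1233 CPM at 7 days and 616 to 901 (median 712) at 30 days, a log2 fold change of -0.93 ± 0.11 (edgeR adjusted p = 0.000651). Hyou1, its nucleotide exchange factor, had -1.09 ± 0.17 (32 to 15.4 CPM) and Pdia6, a disulfide isomerase, -0.72 ± 0.10 (544 to 336 CPM). Hsp90b1, Calr, Pdia3, P4hb and Dnajb11 were also lower, with values from -0.63 to -0.55. The count of lower genes stayed at 8 or 9 when each library was left out in turn and under every other setting tried.

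In ONH 15 of the 18 chaperones had a log2 fold change below 0 and the median was -0.35, but none passed in edgeR (7 at an unadjusted p under 0.05, smallest adjusted p 0.185) and 4 did in DESeq2. Hspa5 there measured 1911, 1643, 985 and 1259 CPM at 7 days and 578 to 1091 (median 761) at 30 days, at -0.83 ± 0.22 (edgeR adjusted p = 0.189), and the difference between its change in ONP and in ONH was -0.10 ± 0.26 (adjusted p = 0.928).

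**Figure D4:**
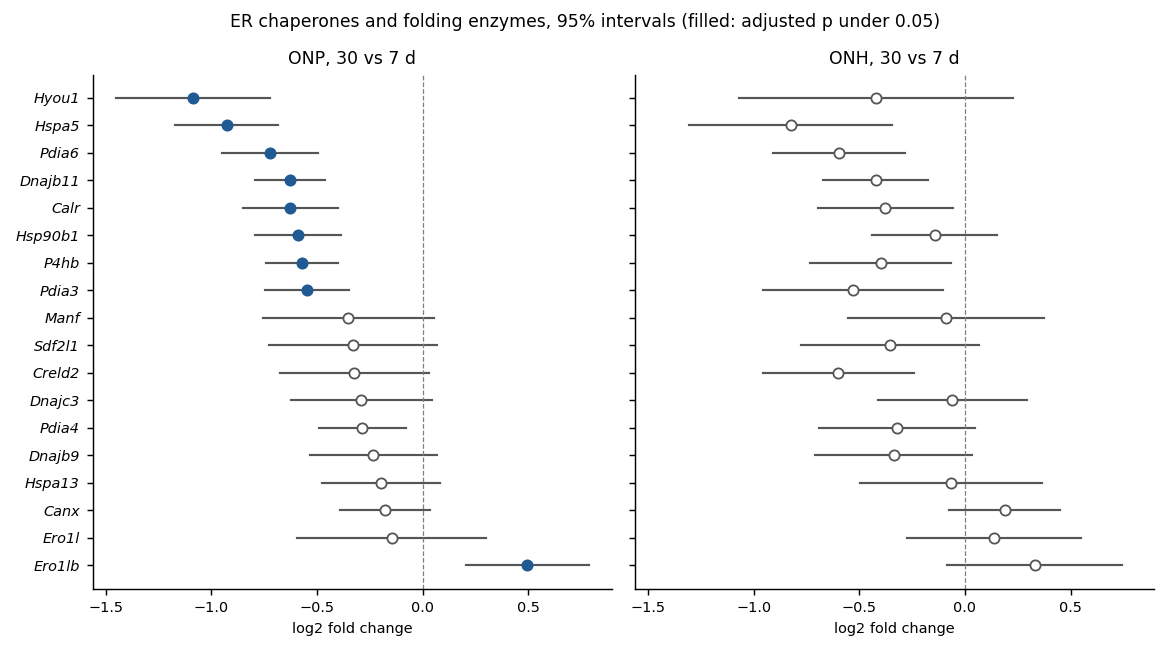
Log2 fold changes at 30 against 7 days (horizontal axes) of 18 ER chaperones and folding enzymes in ONP and ONH, ordered by the ONP value, with 95% intervals as lines; filled points passed an adjusted p under 0.05 in edgeR. Most points lie left of 0 in both regions, 17 in ONP and 15 in ONH, with 9 filled in ONP and none in ONH.

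The promoters of the chaperones are shown because 8 of the 18 genes were lower in ONP at 30 days. The ER stress response element, to which ATF6 and XBP1 bind with NF-Y, was searched on both strands as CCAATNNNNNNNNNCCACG in the 250 bases before the start, and it occurred in 0.113% of 32851 RefSeq promoters and in 7 of the 13 chaperone genes with an entry. Of those 7, 4 were lower in ONP at 30 days (Hspa5, Hsp90b1, Calr and Pdia6) and 3 did not pass (Canx, Dnajc3 and Creld2), and of the 6 with an entry but no match 3 were lower. None of the 9 members with a promoter entry held it. The UPRE (TGACGTGG, 0.563% of promoters) was found in none of these members and in no chaperone promoter of this length. The windows of the 4 lower genes follow, 5′ to 3′ on the strand of the gene, with the element in capitals.
Hspa5, chr2:34772009-34772059, plus strand: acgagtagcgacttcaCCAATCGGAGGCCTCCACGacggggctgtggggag
Hsp90b1, chr10:86705622-86705672, minus strand: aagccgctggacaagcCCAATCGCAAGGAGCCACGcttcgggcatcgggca
Hsp90b1, chr10:86705517-86705567, minus strand, match on the opposite strand: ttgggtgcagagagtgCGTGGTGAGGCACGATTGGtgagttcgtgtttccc
Calr, chr8:84847059-84847109, minus strand, match on the opposite strand: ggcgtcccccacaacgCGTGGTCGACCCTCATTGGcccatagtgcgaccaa
Pdia6, chr12:17266475-17266525, plus strand: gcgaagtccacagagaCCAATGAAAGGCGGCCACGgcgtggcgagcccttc

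The other lists had fewer calls in ONP, where 7.82% of all genes were higher at 30 days and 9.21% lower. Of 15 genes of ER-associated degradation 4 were lower, Syvn1 (-0.79 ± 0.14), the ligase of that pathway, Edem2 (-0.41 ± 0.11), Herpud1 (-0.39 ± 0.13) and Vcp, and of 7 sensors and their proteases Atf6b (-0.56 ± 0.11), the paralog of Atf6, was lower beside Atf6. Of the 19 tRNA synthetases in the list 5 were lower, led by Vars (-0.65 ± 0.12), Iars (-0.53 ± 0.16) and Sars (-0.47 ± 0.10). All 19 had a value below 0 (median -0.24). Mars, the synthetase left out of the list, was lower as well and by more than Vars, at -0.67 ± 0.13 (edgeR adjusted p = 0.00482). The counts for degradation and tRNA synthetases were 2 and 2 with scaling by library size alone, and 1 and 2 without the ONP library numbered 6 at 7 days. The amino acid transporters Slc38a2 (-1.03 ± 0.12) and Slc7a1 (-0.81 ± 0.23), Aldh1l2 (-0.77 ± 0.22) and Ppp1r15b (-0.24 ± 0.07) were lower, 2 of 9 transporters, 1 of 9 synthesis genes and 1 of 7 in the eIF2alpha list. Higher were Atf5 (1.36 ± 0.33, 2.26 to 5.94 CPM), Clpp (0.57 ± 0.12) and Oma1 (0.51 ± 0.15), while Hspd1, the mitochondrial chaperonin, was lower (-0.32 ± 0.10), and in the translocation list Ssr1 was higher (0.36 ± 0.09) and Sec61a1 lower (-0.41 ± 0.09). With 1 library left out the lower transporters numbered 1 to 4 (1 without any of the ONP libraries numbered 1, 2 and 6 at 7 days or replicates 1, 2, 3, 4 and 6 at 30 days, 3 without replicate 7 and 4 without replicate 5). The lists of Aldh1l2, Ppp1r15b and Hspd1 had no lower call in 8 of 11 such fits each, the list of Ssr1 and that of Ero1lb had no higher call without the ONP library numbered 5 or 6 at 7 days, and the relay had 1 higher call without any 1 of the 4 libraries at 7 days or replicate 1, 2 or 3 at 30 days. No ATF4 target regulator passed in edgeR (4 of 9 at an unadjusted p under 0.05; DESeq2 called 1). In ONH no gene of the 11 lists passed in edgeR, while 0 to 7 genes a list had an unadjusted p under 0.05 and DESeq2 called 4 chaperones and 1 gene in each of 3 other lists.

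**Figure D5:**
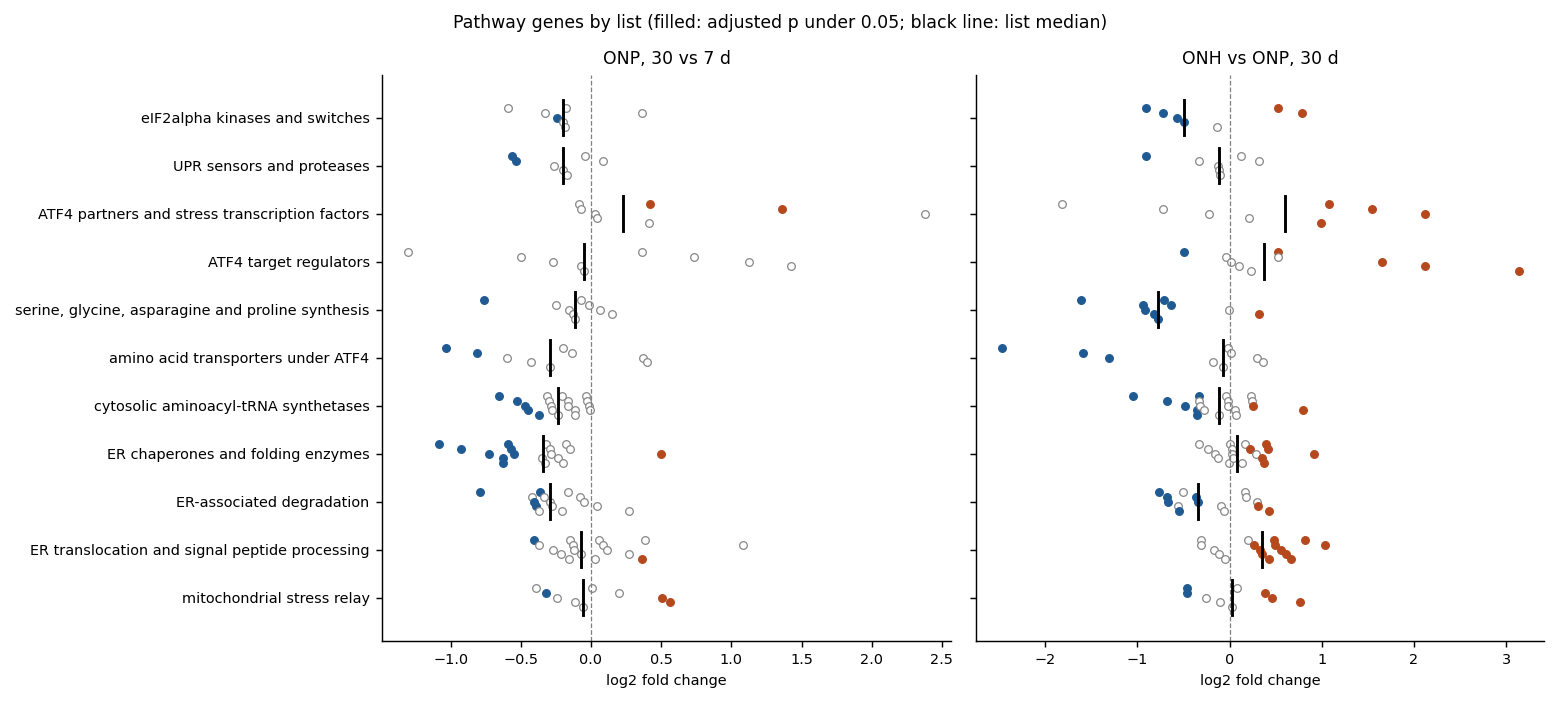
Log2 fold changes (horizontal axes) of each gene of the 11 pathway lists, at 30 against 7 days in ONP on the left and for ONH against ONP at 30 days on the right; filled points passed an adjusted p under 0.05 in edgeR, red for higher and blue for lower, and black lines are list medians. The ER chaperones lie left of 0 on the left panel (8 lower, 1 higher), the synthesis genes lie left of 0 on the right panel (7 lower, 1 higher) and the translocation genes right of 0 (11 higher).

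Some markers of other cells were lower in ONP at 30 days as well, where 9.21% of all genes were. These were 8 of 10 oligodendrocyte markers (median -0.84), 5 of 8 endothelial and 3 of 6 mural markers. The neuron, photoreceptor, pigment cell and surface epithelium lists each had 1 lower. None of 10 microglia and macrophage, 5 oligodendrocyte precursor or 6 fibroblast and meningeal markers passed, and 1 of 10 astrocyte markers was higher. Apart from the cell lists, 3 of 9 immediate early genes tested were lower. The oligodendrocyte sum ran from 82800 to 108261 CPM at 7 days and from 26122 to 84745 at 30 days. In ONH no marker of these lists passed in edgeR between the days, and the medians were -1.78 for 8 endothelial, -1.22 for 6 mural, -1.51 for 6 fibroblast and meningeal and -1.77 for 6 photoreceptor markers and 0.01 for 10 oligodendrocyte markers. The part of these cells in the changes of either region was not tested.

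The change between days was compared between regions with an interaction term (the change in ONP minus the change in ONH). None of the 10 members passed in edgeR, where 0.543% of 16748 genes did (25 higher and 66 lower, or 37 and 32 with scaling by library size alone), and DESeq2 called none. At an unadjusted p under 0.05 there was 1, Atf6, at -0.55 ± 0.24 (edgeR adjusted p = 0.345). Trib3 at 2.21 (-0.41 to 4.83; -1.21 with limma-voom) and Chac1 at 1.55 (-0.07 to 3.17) had wide intervals. For Atf4 the interval was -0.65 to 0.71 and for Ddit3 -0.33 to 0.72, so a difference between regions in how these 2 changed was not shown. None of the pathway genes passed in edgeR, while 0 to 3 genes a list had an unadjusted p under 0.05 and DESeq2 called 1 gene in each of 3 lists.

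The genes most like each member over the 22 libraries, by Pearson r of log2 CPM with group means removed, are given as a description, since libraries share mice, depth and preparation. Atf4 was closest to Pabpc1 (r = 0.88), Pop7 (0.86) and Rpl10a (0.86), and Ddit3 to Tmem250-ps (0.92), Nupr1 (0.88) and Ensa (0.88). Trib3 was closest to Fcgr1 (0.93), an Fc receptor of macrophages, Kctd12 (0.88) and Hhex (0.87), and Sesn2 to Angpt2 (0.92), Spon1 (0.91) and Tcf7l2 (0.90). Psat1 was closest to Stard3 (0.82), Phgdh to Piga (0.83), Asns to Smad3 (0.78), Chac1 to Gga2 (0.82), Xbp1 to Sgtb (0.82) and Atf6 to Acadsb (0.83).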

How the data were processed

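The authors aligned reads to mm10 with STAR 2.6.1d, quantified transcripts of Ensembl release 94 with Salmon 0.14.2 and summed them to genes with tximport. They deposited these estimated counts, which were already whole numbers. A table of variance-stabilized values was not used. Library preparation (oligo-dT, unstranded) and sequencing were done together for all samples. Columns were matched to samples by name. The 7 day columns carry numbers that differ from the labels and were assigned to their group only. The 10 members and all gene lists were chosen with earlier results of these data known. Marker, pathway and regulator lists and the rule for naming genes (the members, up to 3 genes with the largest change per list among those that passed, 13 regulators, and the 3 closest genes of each member) were then held fixed. The value of 1 gene that the rule would name is not reported here.

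Here edgeR 4.0.16 in R 4.3.3 was used, with filterByExpr, TMM factors and the quasi-likelihood test on the groups compared (all 4 for the interaction), and Benjamini-Hochberg adjustment over all genes tested at 0.05. DESeq2 1.42.0, limma 3.58.1 (voom with quality weights), other scalings and filters, a block for replicate number and leaving out each library were alternatives. Pooled libraries of 4 mice were the replicates, so p-values measure the spread between pools. Between replicates of a group, chi-square per gene was 20.8 to 246, so no library was a copy of another. ONH and ONP came from the same mice per the study's methods, which do not say that a shared number marks the same pool. At 30 days the deviations of same-numbered libraries from their group means correlated with r from 0.106 to 0.538 in all 7 pairs. A library correlated best with its own number in 3 of 7 only, so the pairing was not established. The main fits between regions were unpaired, and the replicate block was fitted only as an alternative. CPM was computed on the TMM-scaled total. Lengths and positions are from GENCODE M21 (GRCm38). Intervals and floors cover counting error or the spread between libraries only. The tests of ONP at 30 against 7 days and of the interaction were checked on simulated counts with known changes. The comparisons between regions and that between days in ONH were not checked in this way.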

Additional observations from a re-analysis of the deposited data

Results flagged for a closer look

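Of 40 sets of values (10 members in 4 groups), 4 held a library whose gap to its neighbour was over Dixon's critical value at 95%, and chance gives about 1 in 20. Ddit3 in the ONP library numbered 1 at 7 days measured 71.3 CPM, with the next at 50.7. Trib3 in ONP replicate 7 at 30 days measured 6.15 CPM, with the next at 2.14, and Asns in the same library measured 23.6 CPM, with the next at 14.4. Phgdh in the ONH library numbered 1 at 7 days measured 216 CPM, with the next lowest at 344. Without the first of these libraries the change of Ddit3 in ONP was 0.60 on the log2 scale, and without ONP replicate 7 the difference of Asns between regions at 30 days was -0.49.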

How the results depend on the processing

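For ONP at 30 against 7 days the number of members that passed was 2, and it was 4 with limma-voom, 0 with all 4 groups in one fit, and 1 to 3 when a library was left out. In the other 4 comparisons it stayed within 1.5 times the main count under every alternative. The fit with a replicate block at 30 days gave the same 5 members as the fit without it, and no call of a member changed under this pairing. At 7 days no block was fitted, since the columns carry other numbers than the labels and were therefore assigned to a group without a replicate number. The column numbers 1, 5 and 6 occurred in both regions at 7 days, but a fit matched on them was not made.

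Members that had not passed changed direction under some settings, and none passed after the change. In ONH at 30 against 7 days Atf4 became -0.060 with limma-voom, -0.036 with library size only and -0.0025 with no filter, Atf6 -0.098 with limma-voom and -0.027 with library size only, and Trib3 1.5 with limma-voom. In ONP with library size only Phgdh became 0.043 and Sesn2 0.070. Between regions Trib3 became -0.00067 with DESeq2, -0.0028 with library size only and -0.020 with no filter at 30 days, and -0.29 with limma-voom at 7 days, and its interaction became -1.21 with limma-voom. With a library left out, Atf4 ranged from -0.15 to 0.19, Chac1 from -0.41 to 0.19, Psat1 from -0.0052 to 0.21 and Atf6 from -0.10 to 0.17 in ONH over time, Sesn2 from -0.11 to 0.066 and Atf4 from -0.042 to 0.17 in ONP over time, Trib3 from -0.23 to 0.91 and Chac1 from -0.23 to 0.10 between regions at 30 days, and Atf4 from -0.14 to 0.22 in the interaction.

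Library size only moved the median of all genes by more than 0.1 in 3 comparisons, to 0.11 in ONP over time, 0.18 between regions at 7 days (1392 higher and 840 lower calls, against 936 and 1004) and 0.16 in the interaction. Over all genes, calls in ONP over time were 1189 with all 4 groups in one fit and 1439 without the ONP library numbered 6, against 2638. In ONH over time they were 292 with all 4 groups in one fit, 446 with DESeq2, 2 with no filter and up to 167 with a library left out, against 0. Between regions at 7 days they were 3785 with all 4 groups in one fit, 3211 with DESeq2 and 1102 to 2379 with a library left out, against 1940, and in the interaction 409 with DESeq2, 55 with limma-voom, 50 with no filter and 22 to 318 with a library left out, against 91. The cause was not tested. Members at few counts, Trib3 and Chac1, had the widest intervals.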
